A study of Mus musculus with 12 samples.

Results

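Monocytic myeloid-derived suppressor cells (M-MDSC) are immature monocyte-like cells that accumulate in the spleens of tumour-bearing animals and restrain T cells. The RNA of M-MDSC from lymphodepleted mice (LD) was compared here with that of M-MDSC from untreated mice (Ctrl), across every gene that could be tested. The comparison uses 6 of the 12 libraries of the series, 3 labelled LD and 3 labelled Ctrl, each numbered 001 to 003 in its group, and 11122 of 23479 genes, those with a mean normalized count of at least 10 over the 12 libraries. Both groups came from C57BL/6 mice carrying B16 melanomas of over 25 mm2, and both were sorted from spleen by flow cytometry to a stated purity of over 99%. The LD mice also received cyclophosphamide and fludarabine, and their spleens were taken 7 days later. Doses and the gate of the sort are not stated in the labels, nor is a vehicle for the Ctrl mice. The other 6 libraries are sorted polymorphonuclear, neutrophil-like cells (PMN-MDSC) with and without the same treatment, and they enter where a change in M-MDSC is tested against theirs.

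Cyclophosphamide is an alkylating drug that crosslinks DNA, and fludarabine is a purine analogue that blocks DNA synthesis. Together they deplete lymphocytes and dividing marrow cells, and blood cell formation then restarts from stem and progenitor cells. In that recovery, granulocyte-monocyte progenitors give rise to neutrophils through a promyelocyte stage, which makes primary granules (Mpo, Elane, Prtn3), and a myelocyte stage, which makes secondary granules (Ltf, Camp, Ngp, Lcn2). Monocytes leave the marrow as Ly6C-high classical cells, and some convert to Ly6C-low nonclassical cells that patrol vessels. In the mouse spleen both lineages can also be made locally from progenitors that leave the marrow.

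The M-MDSC libraries held 9185223 to 16242926 reads assigned to genes and 12978 to 17776 genes with at least 1 read. The pre-ribosomal transcript Rn45s took the largest share of them, 8.82% to 10.5% in Ctrl and 6.02% to 8.2% in LD, in libraries from which ribosomal RNA had been depleted. Values below are normalized counts in the order of replicates 001, 002 and 003. Changes are log2 differences ± SE of log2(normalized count + 1), LD minus Ctrl, fitted with limma, and a fold is that fitted difference turned back to a ratio. "Rose" and "fell" are used for a Benjamini-Hochberg adjusted p below 0.05 over the 11122 genes, and such genes are said to be called. Nothing in the labels says that the libraries of a group come from separate animals, so the p-values measure the spread between these libraries, which may be technical. In sorted bulk RNA, fewer cells of a type and less RNA per cell cannot be told apart.

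At 7 days after treatment, 283 genes were higher in LD M-MDSC and 52 were lower, 335 in all or 3.01% of the genes tested (2.54% higher and 0.468% lower). The fitted change was at least 2-fold for 222 of the 283 and for 8 of the 52, while the median change of all tested genes was -0.037. In each of the 335, the 3 LD libraries lay entirely above or entirely below the 3 Ctrl libraries. Among all tested genes, 10.6% had all LD libraries above and 12.4% had all below. Leaving out each of the 12 libraries in turn kept 136 of the 335 calls in every case. Of the 283 genes that rose, 23 were on the neutrophil precursor and granule lists, 30 on the mitosis lists, 22 on the interferon and MHC lists and 8 on the nonclassical monocyte list, while 119 were on none of the 72 lists. The lists were chosen with earlier results of these data known, so a share called within a list is a description. For each list below, the shares to set beside its calls are 2.54% higher and 0.468% lower of all tested genes.

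Sequences upstream of the start site are shown for members of 2 of these sets of lists, because the interferon and the mitosis genes are the ones for which a short promoter element is well known. The interferon-stimulated response element is bound by factor complexes, with members of the IRF family, that interferon activates. In stretches of 120 bases upstream of the starts of Ifit3, Ifit1, Rsad2 and Cxcl10, each read 5′ to 3′ on the gene's strand from RefSeq (GRCm38.p6), matches to GAAA, any 2 bases and GAAA again, on either strand, are in capitals. The stretches are chr19:34583367-34583486 on the plus strand, chr19:34640764-34640883 on the plus strand, chr12:26456493-26456612 on the minus strand and chr5:92349020-92349139 on the minus strand.
Ifit3: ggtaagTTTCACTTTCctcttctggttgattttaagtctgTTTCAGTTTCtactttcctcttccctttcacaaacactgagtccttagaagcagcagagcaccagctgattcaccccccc
Ifit1: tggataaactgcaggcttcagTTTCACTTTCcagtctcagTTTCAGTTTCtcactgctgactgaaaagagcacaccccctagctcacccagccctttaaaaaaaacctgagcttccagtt
Rsad2: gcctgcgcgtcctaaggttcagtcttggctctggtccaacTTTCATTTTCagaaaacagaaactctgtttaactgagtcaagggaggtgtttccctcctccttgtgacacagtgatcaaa
Cxcl10: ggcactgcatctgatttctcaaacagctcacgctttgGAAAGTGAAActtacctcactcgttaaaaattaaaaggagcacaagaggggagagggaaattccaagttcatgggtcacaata
Ifit3 and Ifit1 each hold a pair of matches in these stretches, and Rsad2 and Cxcl10 hold a single one. Only genes with a match are shown, and Ifit2, Irf7 and Oasl1, which also rose, held none in the 250 bases before the start. Of the 8885 tested genes with a RefSeq promoter, 3.4% held this motif in the 250 bases before the start. It was found in 8 of 14 genes of the type I and interferon gamma lists that rose (57.1%) and in 18 of 43 genes of those lists that were not called (41.9%).

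The cell cycle genes homology region, TTTGAA, is bound by MuvB complexes, with B-Myb or FOXM1 in dividing cells and as the repressor DREAM in resting cells, and often lies near CCAAT boxes. It is in capitals, on either strand, in 120 bases upstream of Prc1, Cdk1, Ube2c and Top2a. The stretches are chr7:80294356-80294475 on the plus strand, chr10:69352913-69353032 on the minus strand, chr2:164769809-164769928 on the plus strand and chr11:99024190-99024309 on the minus strand.
Prc1: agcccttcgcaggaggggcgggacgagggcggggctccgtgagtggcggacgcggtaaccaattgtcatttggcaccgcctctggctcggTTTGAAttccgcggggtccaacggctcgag
Cdk1: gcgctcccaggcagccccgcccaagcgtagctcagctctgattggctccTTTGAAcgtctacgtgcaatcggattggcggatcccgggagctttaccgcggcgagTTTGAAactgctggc
Ube2c: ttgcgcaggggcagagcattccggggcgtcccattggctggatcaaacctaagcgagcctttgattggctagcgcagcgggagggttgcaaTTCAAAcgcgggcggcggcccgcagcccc
Top2a: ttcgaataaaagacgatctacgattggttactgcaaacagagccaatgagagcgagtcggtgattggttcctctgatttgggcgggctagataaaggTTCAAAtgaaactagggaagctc
Here too only genes with a match are shown, and Plk1 and Hmmr, which also rose, held none in the 250 bases searched. TTTGAA was found upstream of 13% of all tested genes with a promoter, of 11 of 26 mitosis genes that rose (42.3%) and of 12 of 40 that were not called (30%). CCAAT was found in 40.8% of all, in 19 of those 26 (73.1%) and in 57.5% of those 40. For granule genes the corresponding element is that of the C/EBP factors, and TTNNGCAA was found in 8.9% of all promoters and in 7 of 20 neutrophil precursor and granule genes that rose (35%), against 3 of 12 that were not called (25%). These are matches of letters in a window, and binding was not measured.

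The labelled identity was checked first against monocyte markers. Csf1r, the receptor for the growth factor that monocytes depend on, read 14945, 15991 and 13986 in Ctrl and 15618, 16003 and 17050 in LD. Ccr2, the chemokine receptor of marrow exit, read 12407, 12233 and 13959 in Ctrl and 10069, 12135 and 10762 in LD, and Itgam (CD11b) read 10005, 11204 and 9932 in Ctrl and 8824, 9344 and 10763 in LD. Both groups therefore carried the defining RNAs of the label, and none of these 3 genes was called (adjusted p of 0.78, 0.865 and 0.843). Ly6c2, the Ly6C antigen, read 1332, 1802 and 1544 in Ctrl and 2428, 2166 and 1994 in LD, with all LD libraries above Ctrl, and was not called (0.5 ± 0.16, adjusted p = 0.123). Of 23 tested genes of classical monocytes, 0 rose and 1 fell by limma, and their median change was -0.01.

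Progenitor content was read from 7 lists, in which 27 of 91 distinct tested genes rose and 1 fell (30.8% called, against 3.01% of all tested genes). The gains were unevenly spread. They covered 15 of 25 early neutrophil precursor genes (median change 2.43), 9 of 22 granulocyte-monocyte progenitor genes (1.37) and 6 of 16 stem and multipotent progenitor genes (0.99). Committed monocyte progenitor genes had 1 of 20 called (Id2, median -0.05), dendritic cell progenitor genes had 1 of 11 (Id2 again, -0.08), megakaryocyte and erythroid progenitor genes had 1 of 5 (Tfrc, -0.04) and lymphoid progenitor genes had 0 of 5 (-0.12). The count of progenitor genes that rose lay between 21 and 30 when 1 library was left out. For the granulocyte-monocyte list alone it went from 9 to 5 without LD 001 or without Ctrl 001 and to 6 without Ctrl 002, Ctrl 003 or LD 003.

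Kit, the stem cell factor receptor of early progenitors and mast cells, read 6.5, 5.7 and 15.7 in Ctrl and 91.3, 33.1 and 44.3 in LD. Every LD library exceeded every Ctrl library, by 5.53-fold in the fit (2.47 ± 0.46, adjusted p = 0.0086). Myb, a transcription factor that progenitors need and that is switched off as they mature, read 36.3, 23.9 and 42.1 in Ctrl and 325.3, 76.4 and 170.4 in LD, a rise of 2.25 ± 0.42 (adjusted p = 0.00839). Prom1 (CD133) went from 10.4, 15.3 and 13.5 in Ctrl to 300.6, 55.2 and 92.6 in LD, and here LD 001 weighed on the size, which was 3.07 ± 0.46 with it and 2.38 without it (adjusted p = 0.00201 and 0.00154). Erg, a stem cell transcription factor, read 1.9, 7.7 and 6.2 in Ctrl and 97.8, 19.5 and 28.6 in LD and rose by 2.79, or by 2.12 without LD 001.

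Other genes of the same lists were mixed. Cd34, a surface marker of stem and progenitor cells, read 5.8, 17.2 and 18.5 in Ctrl and 26.8, 22.9 and 28.6 in LD, without overlap, with a change of 1.01 ± 0.9 that was not called (adjusted p = 0.79). Flt3, the receptor of multipotent and dendritic cell progenitors, read 258.1, 366.5 and 305.7 in Ctrl and 173.1, 367.7 and 285.7 in LD, and the groups overlapped. Irf8, which directs progenitors toward monocytes and dendritic cells, read 2427, 2497 and 2115 in Ctrl and 1744, 3076 and 2342 in LD, with overlap, as had Cebpa, needed to form granulocyte-monocyte progenitors (adjusted p = 1). Hlf, a factor of stem cells, had a fitted change of 2.58 ± 0.87 that was not called (adjusted p = 0.145). Ly6a (Sca-1, a stem cell antigen that interferon also induces) rose, from 27.9, 21.1 and 18 in Ctrl to 121, 86.6 and 89.6 in LD, by 2.11 ± 0.41 (adjusted p = 0.0102), a call lost without LD 001 (0.0528) or Ctrl 003 (0.0522).

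**Figure D1:**
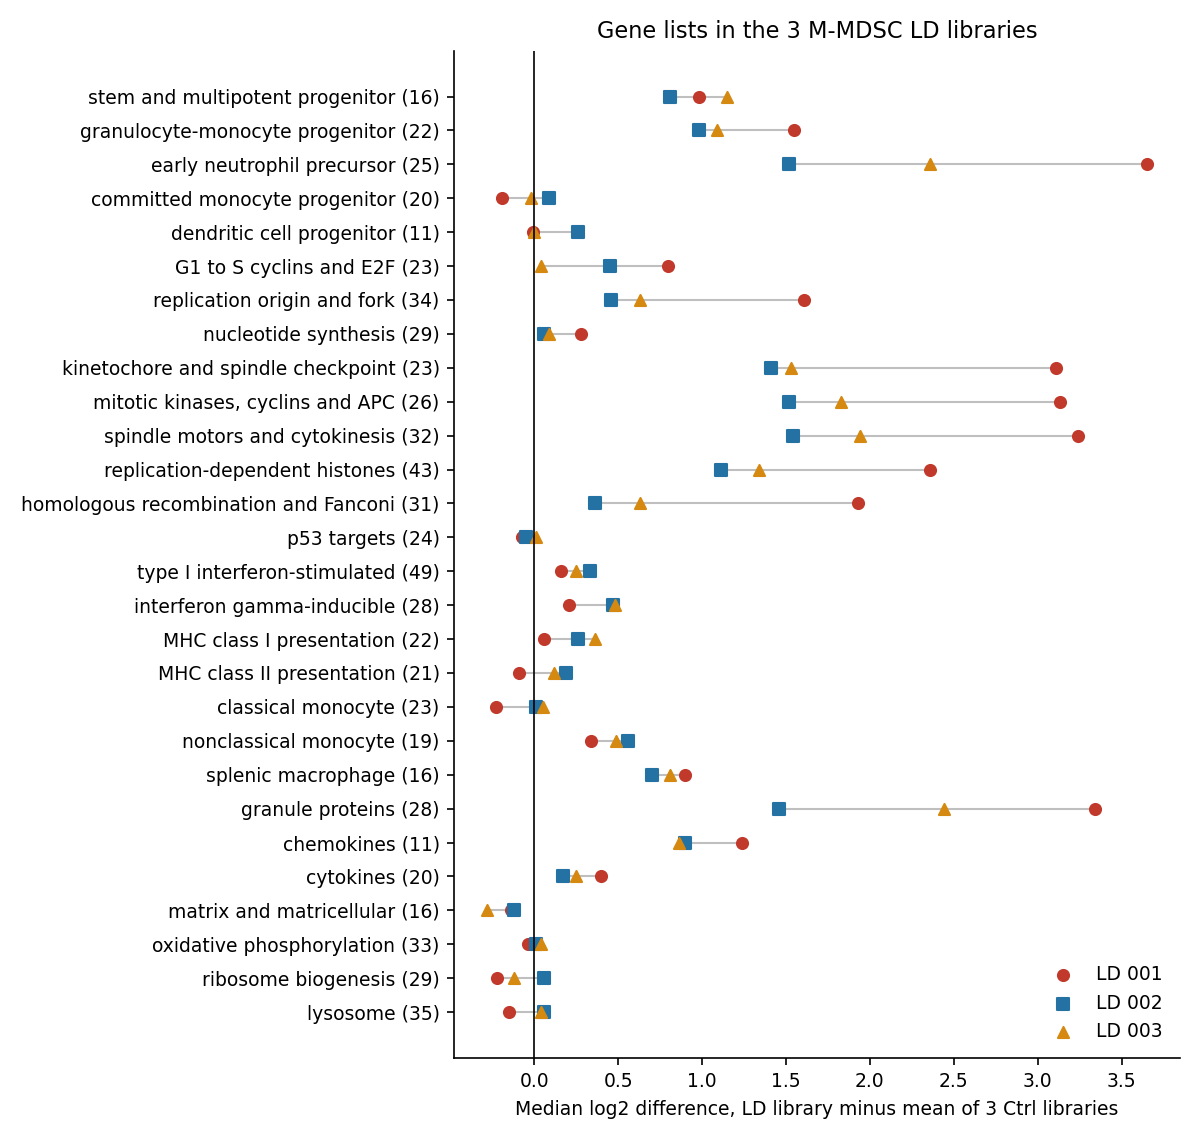
Median log2 difference of each gene list in each M-MDSC LD library (circle 001, square 002, triangle 003) against the mean of the 3 Ctrl libraries, with the number of tested genes in brackets. Early neutrophil precursor, granule and mitosis lists lie over 1 in each library, with LD 001 highest, while the interferon and MHC lists lie within 0.5 of 0.

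The largest rise of the comparison was in a primary granule gene, Mpo. Mpo (myeloperoxidase) read 85, 75.6 and 120 in Ctrl and 4386, 991.8 and 1195 in LD, and Elane (neutrophil elastase) read 27.2, 36.4 and 40.4 in Ctrl and 1658, 269.2 and 407.9 in LD. All 3 LD libraries stood above every Ctrl library, with LD 001 highest. The fitted rises were 4.23 ± 0.99 and 4.01 ± 0.79 (adjusted p of 0.0306 and 0.0105). The Mpo call was lost without LD 001 (0.126, where the change was 3.55), LD 003 (0.0694), Ctrl 001 (0.105), Ctrl 002 (0.102) or Ctrl 003 (0.0769), and the Elane call without LD 001 (0.057, change 3.24) or Ctrl 001 (0.0525). Prtn3 (proteinase 3) rose by 2.33 ± 0.57 (adjusted p = 0.0403), and without any 1 of the 3 Ctrl libraries, of LD 001 or of LD 003 it did not (adjusted p of 0.0682 to 0.157, called in 3 of 12 such fits). Without LD 001 its change was 1.61. Ctsg (cathepsin G) read 14.3, 12.4 and 16.3 in Ctrl and 144.9, 64.5 and 30.5 in LD and was not called.

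Secondary granule genes rose with a smaller fitted SE. That SE pools the error of all 12 libraries, so it does not measure the spread of the M-MDSC libraries alone. Ltf (lactoferrin) read 515.6, 686.1 and 656.3 in Ctrl and 15333, 3294 and 7618 in LD, a rise of 3.56 ± 0.37 or 11.8-fold (adjusted p = 1.6e-04). Camp, the precursor of the antimicrobial peptide CRAMP, went from 167.3, 181.8 and 240.1 in Ctrl to 4838, 1054 and 2190 in LD (3.52 ± 0.37), and Ngp, a granule protein of myelocytes, from 874.2, 1148 and 1108 in Ctrl to 23146, 4680 and 10310 in LD (3.32 ± 0.38). Lcn2, an iron-scavenging lipocalin, rose by 2.83 ± 0.35 (adjusted p = 6.3e-04). In each of these 4 the order was LD 001, then 003, then 002, and the lowest LD library was still above every Ctrl library. All 4 kept their calls with any of the 12 libraries left out. Factors that drive this stage also rose. Cebpe, required for secondary granules, read 32.4, 26.8 and 30.3 in Ctrl and 313.7, 84.9 and 167.5 in LD (2.43 ± 0.33, adjusted p = 8.7e-04), and Gfi1, a repressor that favours neutrophils over monocytes, read 1.9, 8.6 and 6.7 in Ctrl and 142.7, 39.1 and 54.2 in LD (3.5 ± 0.54, adjusted p = 0.00239).

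Genes of the neutrophil list, which also holds genes of earlier stages, were mixed. Of 22 tested genes on the list, 12 rose and 1 fell. The 12 include Ltf, Camp, Ngp and Lcn2, already counted above, and Hdc of the granulocyte-monocyte progenitor list. The summed level of the list was 9433 to 11506 in the Ctrl libraries and 93164, 22134 and 41924 in LD 001, 002 and 003. Ngp, S100a9 and Ltf were its most abundant members. S100a8 and S100a9, the calprotectin subunits, rose by 3.14 ± 0.43 and 3.39 ± 0.42, and by 2.42 and 2.7 without LD 001, or 3.79 and 3.99 without LD 002. Csf3r, the G-CSF receptor of mature neutrophils, read 4501, 4420 and 4750 in Ctrl and 4479, 3675 and 3746 in LD, with overlap and a change of -0.21 (adjusted p = 0.436). Cxcr2, the receptor with which neutrophils leave the marrow, read 8.4, 31.6 and 35.9 in Ctrl and 89.1, 18.7 and 62.1 in LD and was not called (mean in PMN-MDSC Ctrl 29542). Mmp8, the neutrophil collagenase, fell, from 817.1, 1208 and 973.3 in Ctrl to 549.8, 576.5 and 470.9 in LD (-0.89 ± 0.17, adjusted p = 0.0104), a call lost without LD 003 (0.0546) or Ctrl 002 (0.0524). Retnlg rose from 5.2, 17.2 and 4.5 in Ctrl to 33.3, 17.8 and 51.2 in LD, against a mean of 8232 in PMN-MDSC Ctrl, and its call was lost without LD 001 (0.0671), LD 003 (0.108), Ctrl 001 (0.113) or Ctrl 003 (0.113). The part of neutrophils or their precursors in the sorted fraction was not tested.

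**Figure D2:**
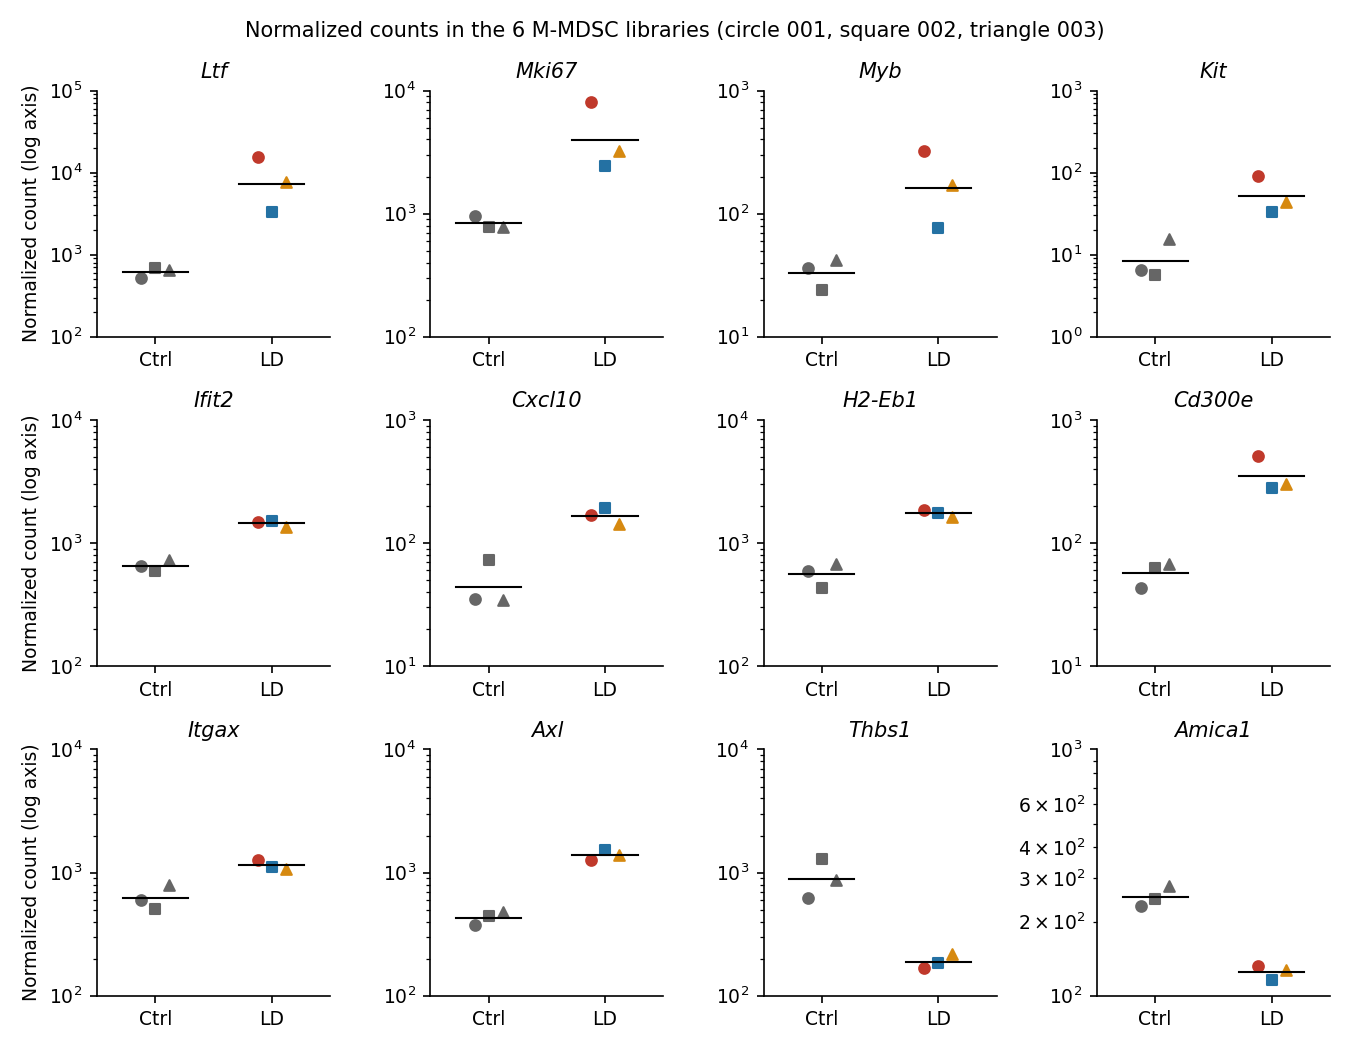
Normalized count (log axis) of 12 genes in the 3 Ctrl and 3 LD libraries of M-MDSC, with a line at the geometric mean of count + 1, minus 1. The 3 LD libraries spread widely for Ltf, Mki67, Myb and Kit, with LD 001 on top, and lie close together for Ifit2, H2-Eb1, Axl and Thbs1.

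Among cell division genes, those of mitosis were called in all 3 of their lists. The 3 mitosis lists were kinetochore and spindle checkpoint, mitotic kinases and cyclins with the anaphase-promoting complex, and spindle motors and cytokinesis. Of their 80 distinct tested genes, 30 were called higher and 0 lower by limma, against 2.54% higher of all tested genes. By list, 6 of 23, 9 of 26 and 16 of 32 rose, with medians of 2.06, 2.16 and 2.31. Mki67, a marker of cycling cells, read 954.6, 775.1 and 774.7 in Ctrl and 8133, 2434 and 3201 in LD, a rise of 2.26 ± 0.47 (adjusted p = 0.0145). Ccna2 (cyclin A2), which drives S phase and entry to mitosis, went from 24, 32.5 and 37 in Ctrl to 629.5, 180 and 266 in LD (3.3 ± 0.54, adjusted p = 0.00311). Prc1, which bundles the midzone microtubules at division, went from 44.7, 31.6 and 30.3 in Ctrl to 471.6, 172.4 and 188.2 in LD (2.79 ± 0.45), and Ube2c, the ubiquitin carrier of the anaphase-promoting complex, from 37, 23.9 and 26.4 in Ctrl to 263.7, 105.3 and 115.3 in LD (2.33 ± 0.44). In all 4 the LD 001 library was highest by over 2-fold.

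The 30 calls became 8 without LD 001, 10 without Ctrl 003, 11 without Ctrl 002, 16 without LD 003 and 18 without Ctrl 001, and 49 without PMN-MDSC LD 001, whose own spread enters the pooled error. The Mki67 call was lost without LD 001 (adjusted p = 0.054, change 1.75), Ctrl 002 (0.0575) or Ctrl 003 (0.0608). Cdk1, the mitotic kinase, rose by 2.99 ± 0.61 and lost its call without the same libraries (0.0677, 0.0575 and 0.0664). The list medians remained positive with any 1 of the 6 M-MDSC libraries left out, at 1.54 to 2.34, 1.64 to 2.45 and 1.81 to 2.61, with the lowest values without LD 001.

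DNA replication genes had mostly positive changes and few calls. Of 34 tested genes of replication origins and forks, 33 had a positive change and 2 were called, Mcm10 (1.57 ± 0.35) and Clspn (1.94 ± 0.44), and neither call held without LD 001 (0.114 and 0.109), Ctrl 001 (0.0904 and 0.0802) or Ctrl 002 (0.105 and 0.0789). Clspn also lost its call without LD 003 (0.0546) or Ctrl 003 (0.0813). The list's median change was 0.9. Nucleotide synthesis had 0 of 29 called by limma and a median of 0.06, although Rrm2, the inducible subunit of ribonucleotide reductase, had a change of 2.88 ± 0.78 (adjusted p = 0.0642). At the G1 to S step 3 of 23 genes rose, Ccnd2 (cyclin D2), E2f7 and E2f8. Ccnd2 read 7.8, 23.9 and 22.4 in Ctrl and 57.2, 108.7 and 67 in LD (2.13 ± 0.34, adjusted p = 0.00301) and was highest in LD 002, unlike the mitosis genes. E2f7, a repressor that closes S phase, read 6.5, 5.7 and 9 in Ctrl and 199.9, 52.6 and 50.2 in LD and rose by 3.37, or 2.72 without LD 001.

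Histone genes that are expressed in S phase had 15 of 43 called higher and 0 lower by limma, with a median change of 1.63, and all 43 changes were positive. Hist1h1c, a linker histone, read 1528, 2072 and 1326 in Ctrl and 4512, 2778 and 3110 in LD (1.07 ± 0.19, adjusted p = 0.00611). Hist1h3b read 23.3, 50.7 and 15.7 in Ctrl and 592.6, 218.2 and 288.7 in LD (3.6 ± 0.61, adjusted p = 0.00412). These genes have near-identical copies, so how reads were divided among them is uncertain. Their count fell to 3 without Ctrl 003, 5 without LD 001, 6 without Ctrl 001 and 8 without LD 003, and was 29 without PMN-MDSC LD 001. Targets of p53, the factor that DNA damage activates, had 0 of 24 called by limma, with a median of -0.05. Btg2, one of them, read 1634, 1728 and 1709 in Ctrl and 1414, 1547 and 1699 in LD. Homologous recombination and Fanconi genes had a median of 1.13, with 2 of 31 called, Rad51ap1 (3.22 ± 0.65, not called without LD 001 at 0.0716 or Ctrl 001 at 0.0658) and Fignl1 (2.5 ± 0.64, not called without LD 001 at 0.203, LD 003 at 0.0835, Ctrl 001 at 0.175 or Ctrl 003 at 0.192).

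A minority of interferon-responsive genes rose. Of 49 tested type I interferon-stimulated genes 11 rose, of 28 interferon gamma-inducible genes 6 rose, and 0 fell in either list by limma. Of all tested genes, 2.54% rose. The medians were 0.19 and 0.35, and 41 of 49 and 27 of 28 changes were positive. The called members changed by 0.42 to 1.14 in the type I list and by 0.89 to 2.14 in the interferon gamma list, and the LD ratio of highest to lowest was under 1.5 for 11 of 11 and 4 of 6 of them. Ifit2, which binds viral RNA, read 656.3, 590.4 and 726.5 in Ctrl and 1481, 1500 and 1362 in LD. The LD values lay close together and above every Ctrl value, a rise of 1.14 ± 0.1 (adjusted p = 8.3e-05). Ifit3 read 315.8, 244 and 377.5 in Ctrl and 599.1, 635.1 and 767.4 in LD (1.11 ± 0.16), Rsad2 (viperin, an antiviral enzyme) read 267.2, 329.2 and 334.9 in Ctrl and 565, 780.3 and 540.9 in LD (1.0 ± 0.15), and Ifit1 read 241.9, 244 and 244.6 in Ctrl and 401.3, 456 and 359.6 in LD (0.73 ± 0.12). Oasl1, a restrainer of Irf7 translation, rose by 0.83 ± 0.13 (adjusted p = 0.00283). These 5 genes kept their calls with any library left out. Irf7 itself, the factor that amplifies interferon production, rose by 0.42 ± 0.09 and lost the call without LD 003 (0.0631), Ctrl 001 (0.0767) or Ctrl 002 (0.0754).

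Among the interferon gamma-inducible genes, Gbp4, a guanylate-binding protein, read 51.9, 50.7 and 86.4 in Ctrl and 194.9, 193.6 and 209.8 in LD and rose by 1.69 ± 0.29 (adjusted p = 0.00413). Cxcl10, a ligand of Cxcr3, a chemokine receptor of T cells, read 35, 72.7 and 34.2 in Ctrl and 169.5, 192.7 and 143.8 in LD (1.89 ± 0.31, adjusted p = 0.00304), and Ctrl 002 was the highest of its group. Cxcl9, a ligand of the same receptor, read 25.9, 15.3 and 23 in Ctrl and 119.5, 91.7 and 79.8 in LD (2.14 ± 0.47, adjusted p = 0.0214), and its call was lost without LD 001, LD 003 or any Ctrl library (adjusted p of 0.0532 to 0.0995). The receptors and signal carriers of the pathway had 1 of 19 called, the feedback inhibitor Socs1 (1.49 ± 0.35, lost without LD 001 at 0.14, LD 003 at 0.0858, Ctrl 001 at 0.0694, Ctrl 002 at 0.11 or Ctrl 003 at 0.0703).

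Antigen presentation showed calls in a few members. MHC class II had 3 of 21 called, H2-Eb1, H2-Aa and Cd74, and a list median of 0. H2-Eb1, a class II beta chain, read 596, 435.4 and 672.6 in Ctrl and 1854, 1762 and 1643 in LD (1.65 ± 0.3, adjusted p = 0.00815). H2-Aa read 948.8, 840.1 and 1096 in Ctrl and 2319, 2553 and 2293 in LD (1.32 ± 0.29, adjusted p = 0.0204), a call lost without LD 001 (0.0516), LD 003 (0.0611), Ctrl 001 (0.072) or Ctrl 002 (0.0829). The class II invariant chain Cd74 read 5235, 4199 and 4882 in Ctrl and 8407, 10114 and 11387 in LD (1.06 ± 0.24) and lost its call without LD 002 (0.0597), LD 003 (0.112), Ctrl 001 (0.0658), Ctrl 002 (0.11) or Ctrl 003 (0.0808). Among 22 class I genes, H2-K1 rose from 5916, 7220 and 6713 in Ctrl to 10459, 10879 and 11376 in LD (0.73 ± 0.11, adjusted p = 0.00239). H2-Q4 rose by 0.9 ± 0.12, and its reads are uncertain because of close relatives. B cell genes, another source of class II RNA, summed to 292.3 to 423.9 in Ctrl and 194.1 to 283.7 in LD, and conventional dendritic cell genes to 1454 to 1917 and 1389 to 1498, with 0 of 3 and 0 of 10 called by limma.

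Nonclassical monocyte genes were higher in LD. Of 19 nonclassical monocyte genes 8 rose and 0 fell by limma, all 19 changes were positive with a median of 0.41, and in 15 of 19 the LD libraries lay above Ctrl (10.6% of all tested genes). Cd300e, an activating receptor of nonclassical monocytes, read 42.8, 63.2 and 67.3 in Ctrl and 507.8, 278.5 and 299.5 in LD, a rise of 2.6 ± 0.42 or 6.06-fold (adjusted p = 0.00302). Itgax (CD11c) read 598.6, 504.3 and 786.5 in Ctrl and 1265, 1105 and 1071 in LD (0.88 ± 0.16, adjusted p = 0.00611). Eno3, a muscle-type enolase that marks these monocytes, read 341.1, 294.7 and 392.7 in Ctrl and 1015, 631.7 and 636.4 in LD (1.12 ± 0.22), a call lost without Ctrl 002 (0.0505). Fcgr4, an activating IgG receptor, read 166.7, 243 and 149.8 in Ctrl and 293.4, 502.7 and 790.1 in LD (1.42 ± 0.31), highest in LD 003, and lost its call without LD 003 (0.0915), Ctrl 001 (0.0888) or Ctrl 003 (0.0961).

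Smaller shifts were in Cebpb, which nonclassical monocytes need (0.41 ± 0.1, adjusted p = 0.0357), Spn (CD43, 0.4 ± 0.1, 0.0413) and Treml4 (0.6 ± 0.15, 0.0459). Each of these 3 calls was lost without LD 003 (0.108, 0.132 and 0.132), Ctrl 001 (0.14, 0.172 and 0.209), Ctrl 003 (0.151, 0.145 and 0.132) or LD 002 (0.124, 0.0755 and 0.069), and those of Spn and Treml4 also without LD 001 (0.0912 and 0.12), and that of Spn without Ctrl 002 (0.0577). The list's count of 8 went to 4 without Ctrl 001, Ctrl 003 or LD 003 and to 5 without LD 002 or PMN-MDSC Ctrl 002. The fractalkine receptor Cx3cr1, a defining gene of these monocytes, read 3665, 3872 and 3729 in Ctrl and 3730, 4624 and 3218 in LD with overlap, and their master factor Nr4a1 read 3648, 5064 and 3318 in Ctrl and 4619, 6129 and 4695 in LD with overlap. Pglyrp1 is on this list and on that of granule proteins, and it rose by 1.74 ± 0.23.

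Other cell types that a spleen sort could carry were measured in the same libraries. T cell genes summed to 31.1 to 47.8 in Ctrl and 23.6 to 50 in LD, with 3 of 15 matched members abundant enough to test, 0 called by limma and Cd8b1 at 0 reads in all 6 libraries. Erythroid genes summed to 21.4 to 38.7 and 23.2 to 38.4, with the globins Hbb-bs, Hbb-bt, Hba-a1 and Hba-a2 at 0 reads. Of 10 matched plasma cell genes 6 were tested and 1 fell. Igj, the joining chain of IgM and IgA, read 78.5, 333.9 and 140.2 in Ctrl and 1.4, 0 and 2 in LD (adjusted p = 0.00181), at or near 0 in each LD library, while Prdm1 and Xbp1, the factors of plasma cells that myeloid cells also express, had changes of -0.05 and -0.11 and were not called. NK cell genes summed to 55.8 to 139.7 and 126.1 to 231.1, with 0 of 2 tested called by limma, and Nkg7, a cytotoxic granule protein, read 1.3, 3.8 and 2.2 in Ctrl and 85.5, 20.4 and 19.7 in LD (3.35 ± 0.93, adjusted p = 0.069).

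Basophil and mast cell genes summed to 32.5 to 79.1 in Ctrl and 124.8 to 441.9 in LD, and 2 of 3 tested rose, Kit and Hdc. Hdc, the histidine decarboxylase of basophils and of immature neutrophils, read 20.8, 25.8 and 42.6 in Ctrl and 319.5, 79 and 159.6 in LD (2.45 ± 0.35, adjusted p = 0.00151), while Il4 and Tpsb2 were at 0 reads in all 6. Ms4a2, a chain of the high-affinity IgE receptor, was too low to test and read 0, 0 and 1.1 in Ctrl and 23.9, 5.1 and 4.9 in LD, higher in every LD library. Macrophage genes had 5 of 16 called, with a summed level of 7188 to 8581 in Ctrl and 8130 to 9282 in LD. Axl, a receptor for dying cells, read 374.8, 444.9 and 479.6 in Ctrl and 1274, 1534 and 1398 in LD (1.7 ± 0.33, adjusted p = 0.0104), even across the LD libraries, and lost its call without Ctrl 001 (0.0545). Vcam1 (1.8 ± 0.45) and Slc40a1 (ferroportin, 1.54 ± 0.36) were highest in LD 001, and the complement genes C1qa (13, 13.4 and 7.9 in Ctrl and 43.5, 41.6 and 64 in LD) and C1qc (26.6, 20.1 and 11.2 in Ctrl and 47.1, 75.6 and 56.2 in LD) were low in both groups. Slc40a1 lost its call without Ctrl 001 (0.143) or Ctrl 002 (0.0614), and Vcam1 without LD 001 (0.178), LD 003 (0.0554), Ctrl 001 (0.165) or Ctrl 003 (0.169). The calls of C1qa and C1qc did not hold without LD 001, LD 002, LD 003, Ctrl 002 or Ctrl 003 (adjusted p of 0.063 to 0.158 and 0.0651 to 0.172), nor did that of C1qa without Ctrl 001 (0.0958). The macrophage count ranged from 1 without Ctrl 001 to 6, and was 2 without LD 001, LD 003, Ctrl 002, Ctrl 003 or PMN-MDSC Ctrl 002, and 3 without LD 002, PMN-MDSC Ctrl 001 or PMN-MDSC Ctrl 003. The part of these cells in the results above was not tested.

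Proteins of the cell surface were covered by 10 lists with 308 distinct tested genes, of which 32 rose and 7 fell (12.7% called, against 3.01% of all tested genes). The lists were written with earlier results in view, so this share is a description of the lists. Leaving out 1 library left 14 (without Ctrl 003) to 38 rises, with 17 without Ctrl 001, 20 without LD 003 and 21 without LD 001. Several risers belong to groups above, namely Kit, Cd63, Ms4a3 and Itgb2l with the precursors and Cd300e, Itgax, Fcgr4, Spn and Treml4 with nonclassical monocytes. Itgb2l, an integrin beta subunit of neutrophil precursors, read 29.8, 17.2 and 39.8 in Ctrl and 767.2, 199.5 and 352.7 in LD (3.74 ± 0.37, adjusted p = 1.6e-04). Cd63, a granule membrane tetraspanin, read 22.7, 10.5 and 16.3 in Ctrl and 304.3, 35.7 and 118.2 in LD (2.72 ± 0.52, 1.98 without LD 001 and 3.51 without LD 002). Ms4a3, a marker of granulocyte-monocyte progenitors, read 7.8, 18.2 and 15.1 in Ctrl and 289, 61.1 and 99.5 in LD (3.13 ± 0.73, and 2.5 with no call without LD 001), and was also not called without LD 003 (0.0782), Ctrl 001 (0.135), Ctrl 002 (0.0614) or Ctrl 003 (0.0808).

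Some other surface genes that rose had close values across LD. Cd82, a tetraspanin, read 262.6, 297.6 and 262 in Ctrl and 533.2, 501.8 and 550.7 in LD (0.95 ± 0.13, adjusted p = 7.6e-04), and Treml2, a receptor of the TREM family, read 194.6, 171.3 and 223.3 in Ctrl and 480.3, 421.2 and 520.2 in LD (1.27 ± 0.16, adjusted p = 6.3e-04). Cd274 (PD-L1, the ligand that restrains T cells through PD-1) read 207.5, 174.1 and 231.7 in Ctrl and 525.2, 313.3 and 328.1 in LD, highest in LD 001, a rise of 0.89 ± 0.17 (adjusted p = 0.0104) that was lost without Ctrl 002 (0.0506). It was 1 of 2 calls among 26 checkpoint genes, with Pilra (0.52 ± 0.12), a paired inhibitory receptor that was called in 7 of the 12 fits that leave out a library. Its relative Pdcd1lg2 (PD-L2) and the costimulator Cd86 had changes of -0.12 and -0.18 and were not called. Ffar2, a receptor for short-chain fatty acids, read 1.3, 1.9 and 13.5 in Ctrl and 142, 39.1 and 65 in LD, and its rise of 3.98 ± 0.62 became 4.8 without Ctrl 003, the Ctrl library that held most of it. Mrgpra2b, which has a close copy, had 0 reads in each Ctrl library and read 27.5, 5.1 and 5.9 in LD, at least 5.93-fold higher against a floor of 3 reads per library. Of 19 chemokine receptors, 1 rose, the decoy-like Ccrl2 (1.51 ± 0.34), whose call was lost without LD 001 (0.0512), LD 003 (0.112) or any Ctrl library (0.051 to 0.11).

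The remaining surface genes that rose were Ncam1 (2.08), Gpr84 (1.83), Tfrc (1.69), Cd24a (1.62), Cd81 (1.61), P2rx1 (1.6), Cd9 (1.22), Trem1 (0.92), Ptger4 (0.8), Cd300ld (0.48) and Cd37 (0.37). Of these, Ncam1, Cd24a and Cd81 kept their calls with each of the 12 libraries left out. Those of Gpr84, Tfrc, P2rx1, Cd9, Trem1, Ptger4, Cd300ld and Cd37 were lost without LD 001 (adjusted p of 0.0962, 0.166, 0.14, 0.054, 0.0889, 0.0909, 0.0998 and 0.0608) and without Ctrl 003 (0.0954, 0.133, 0.0743, 0.0861, 0.124, 0.153, 0.0808 and 0.12). The 7 after Gpr84 also lost them without Ctrl 001 (0.104, 0.181, 0.0909, 0.0514, 0.0671, 0.115 and 0.158). Of the 12 fits that leave out a library, Gpr84 was called in 10, Cd9 in 8, Ptger4 and Cd300ld in 7 and 7, Trem1 in 6, P2rx1 in 4, Tfrc in 3 and Cd37 in 2.

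Among the 7 surface genes that fell were Clec4d, Amica1, Bst1, Fcgr2b, Insr and Emb. Amica1 (now Jaml), an adhesion molecule of migrating leukocytes, read 232.2, 245.9 and 279.4 in Ctrl and 131.8, 115.5 and 127.1 in LD (-1.01 ± 0.13, adjusted p = 7.8e-04), and Bst1 (CD157), an adhesion enzyme, read 525.9, 504.3 and 396.6 in Ctrl and 308.6, 279.4 and 227.6 in LD (-0.81 ± 0.13). Both held with any library left out. Fcgr2b, the inhibitory IgG receptor, read 2011, 1782 and 1755 in Ctrl and 1250, 1263 and 1260 in LD, the most even of the LD values, and its fall of -0.55 ± 0.14 was not called without any 1 of the 6 M-MDSC libraries (adjusted p of 0.08 to 0.183). Clec4d, a receptor for mycobacterial lipid, had a change of -1.07 ± 0.24, which was not called without LD 002 (0.0713), LD 003 (0.107), Ctrl 001 (0.0682) or Ctrl 002 (0.108). Insr (-0.46) and Emb (-0.46) lost their calls without LD 001 (0.0833 and 0.119), LD 003 (0.127 and 0.165) or any Ctrl library (0.0898 to 0.127 and 0.0617 to 0.183).

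**Figure D3:**
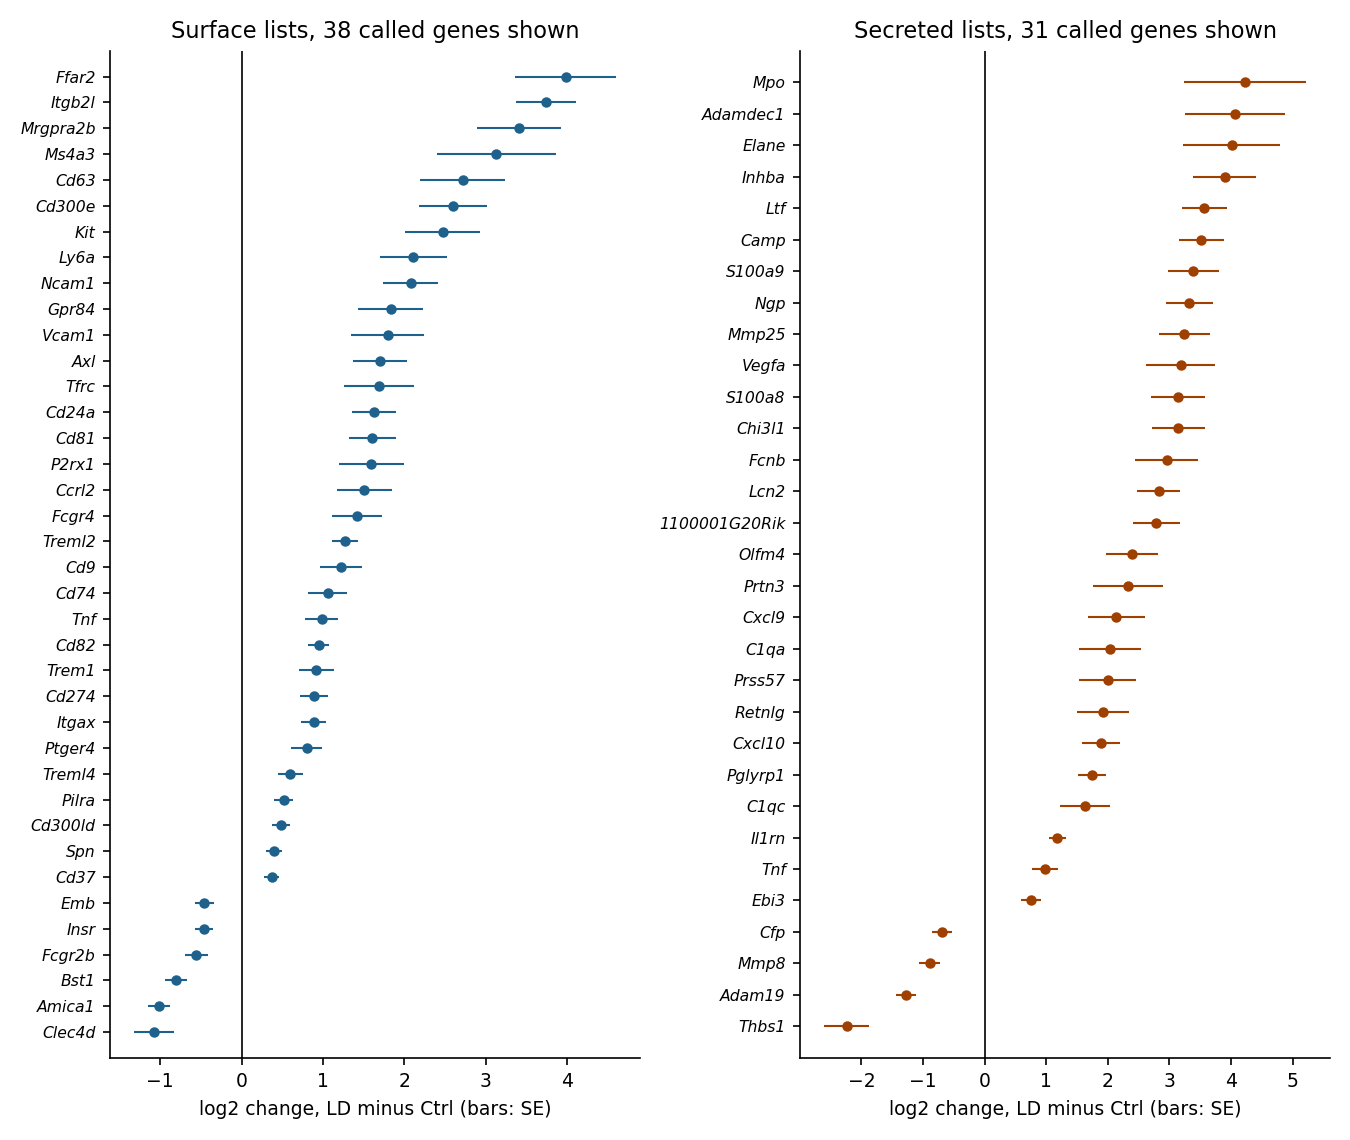
Fitted log2 change ± SE (LD minus Ctrl in M-MDSC) of called genes of the surface lists, those reported here, and of the 31 called genes of the secreted lists. Granule proteins fill much of the upper right side, Thbs1 is the lowest secreted gene, and the value of Mrgpra2b depends on the pseudocount since Ctrl was at 0.

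Secreted proteins were covered by 7 lists with 140 distinct tested genes, of which 27 rose and 4 fell (22.1% called, against 3.01% of all tested genes). These lists too were written with earlier results in view, so this share is a description of the lists. Granule proteins made up 16 of the 27. Rises ranged from 18 to 30 when 1 library was left out, with 18 without Ctrl 003 or LD 001. Outside the granule list, Inhba, the subunit of activin A, read 4.5, 1 and 8.4 in Ctrl and 115.2, 51.8 and 54.2 in LD and rose by 3.9 ± 0.51 (adjusted p = 7.6e-04), or by 3.27 without Ctrl 002. Vegfa, the main vessel growth factor, read 7.1, 2.9 and 15.7 in Ctrl and 183.3, 27.2 and 74.9 in LD (3.18 ± 0.56, 2.52 without LD 001 and 3.87 without LD 002). Both were at low levels in Ctrl and separated from LD in every library. Il1rn, the interleukin-1 receptor antagonist, read 114.1, 126.3 and 114.4 in Ctrl and 294.8, 275.1 and 239.4 in LD (1.18 ± 0.13, adjusted p = 3e-04), with LD libraries close together. Tnf read 138.1, 137.8 and 103.2 in Ctrl and 315.1, 206.3 and 235.5 in LD (0.98 ± 0.21) and lost its call without LD 001 (0.0741) or Ctrl 003 (0.0844).

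Adamdec1, a metalloprotease of macrophages, went from 4.5, 1.9 and 0.6 in Ctrl to 39.8, 56 and 50.2 in LD (4.07 ± 0.81, adjusted p = 0.0118), with calls lost without LD 003 (0.0506) or Ctrl 003 (0.0627). Ebi3, a subunit of interleukins 27 and 35, rose by 0.75 ± 0.17, which was not called without LD 001 (0.0968), LD 002 (0.0531), Ctrl 001 (0.117) or Ctrl 002 (0.0581). Il1b, a cytokine of activated myeloid cells, had a change of 0.28 ± 0.15 and was not called (adjusted p = 0.48). Ccl2, the ligand of Ccr2, had one of 1.03 ± 0.79 (adjusted p = 0.717), and Tgfb1 one of -0.32 ± 0.11 (adjusted p = 0.193).

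Of the 4 secreted genes that fell, thrombospondin 1 fell furthest. Thbs1, an inhibitor of vessel growth that also activates TGF-beta, read 626.5, 1299 and 873.4 in Ctrl and 166.6, 184.3 and 216.7 in LD, with Ctrl 002 highest and the LD libraries close together. It fell to 1/4.73 of Ctrl (-2.24 ± 0.36, adjusted p = 0.00302) and kept the call with any library left out. Adam19, a shedding protease, read 444.2, 531.1 and 463.9 in Ctrl and 142, 256.4 and 209.8 in LD (-1.28 ± 0.17, adjusted p = 7.6e-04). Cfp (properdin, of the alternative complement pathway) read 551.2, 784.6 and 579.5 in Ctrl and 384.7, 394 and 396 in LD (-0.69 ± 0.16) and lost its call without LD 001, LD 002, LD 003, Ctrl 002 or Ctrl 003 (adjusted p of 0.0632 to 0.141). The matrix and matricellular list was evenly split, with 8 of 16 tested genes positive and a median change of -0.047. All LD libraries lay below Ctrl in 6 of its genes and above in 3, against 12.4% below and 10.6% above of all tested genes. Its abundant members Fn1, Tgfbi and Vcan were lower in every LD library without being called. Fn1 (fibronectin) read 48534, 62736 and 52516 in Ctrl and 23362, 37895 and 37056 in LD (-0.76 ± 0.24, adjusted p = 0.115), Tgfbi had a difference of -0.37 ± 0.11 (0.0788) and Vcan (versican) read 9694, 10341 and 10706 in Ctrl and 6305, 3900 and 1991 in LD (-1.49 ± 0.7, 0.388).

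Genes that give these cells their suppressive name had 7 of 30 called higher and 0 lower by limma, with a median of 0.15. Of all tested genes, 2.54% were called higher. S100a8, S100a9, Cd274 and Vegfa are described among the granule, surface and secreted genes. Ncf1, a subunit of the NADPH oxidase, rose by 0.81 ± 0.17 and was called in 9 of the 12 fits that leave out a library. Irg1 (now Acod1), which makes the metabolite itaconate, read 5.8, 3.8 and 9.5 in Ctrl and 54.3, 55.2 and 32.5 in LD (2.74 ± 0.31, adjusted p = 3e-04). Trib1, an adaptor that lowers C/EBP-alpha protein, read 221.1, 263.1 and 241.8 in Ctrl and 470.9, 480.6 and 396 in LD (0.89 ± 0.11, adjusted p = 6.3e-04). Arg1 and Nos2, the arginine-consuming enzymes most used to define the function, were too low to test. Arg1 read 7.8, 2.9 and 3.4 in Ctrl and 0, 4.2 and 0 in LD, and Nos2 read 0, 0 and 4.5 in Ctrl and 0, 5.1 and 3 in LD. The interleukin-6 receptor gene Il6ra read 4786, 4877 and 4794 in Ctrl and 4065, 4505 and 4838 in LD, with overlap (adjusted p = 0.704).

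Transcription factors of myeloid cells had 8 of 39 called higher, 0 lower by limma. Besides Cebpe, Gfi1, Myb and Cebpb these were Egr1, Bhlhe40, Id2 and Id1, the last called in 4 of the 12 fits that leave out a library. Egr1, an immediate-early gene of macrophage differentiation, read 20.1, 14.4 and 21.3 in Ctrl and 89.8, 53.5 and 45.3 in LD (1.66 ± 0.27, adjusted p = 0.00352). Bhlhe40, a repressor of Il10, read 459.1, 509.1 and 374.2 in Ctrl and 773.7, 916.2 and 777.3 in LD (0.88 ± 0.15, adjusted p = 0.00381). Jun, a subunit of AP-1, read 226.3, 301.4 and 262.5 in Ctrl and 487.5, 418.6 and 514.3 in LD (0.85 ± 0.12, adjusted p = 0.00101). Id2, an inhibitor of E proteins, rose by 0.92 ± 0.18 and lost its call without Ctrl 001 (0.0525). Bcl2a1b, a survival gene of the BCL2 family with near-identical copies, read 54.5, 50.7 and 55.5 in Ctrl and 268, 174.9 and 199 in LD (1.96 ± 0.25, adjusted p = 6.3e-04) and was the only one of 17 family genes called. Among metabolic and housekeeping lists, limma called 0 of 33 oxidative phosphorylation genes (median 0.02), 0 of 29 ribosome biogenesis genes (-0.1) and 0 of 30 sterol and fatty acid synthesis genes (0.3), although in 13 of those 30 all LD libraries lay above Ctrl (10.6% of all tested genes). It called 3 of 29 glycolysis and pentose phosphate genes (Slc16a3, Slc2a3 and Hk3), 2 of 32 unfolded protein response and chaperone genes (Hsp90aa1 and Hspa8) and 1 of 35 lysosome genes (Cd63), all higher. Of the 12 fits that leave out a library, Slc2a3 was called in 8, Hk3 in 6 and Hspa8 in 8, and without LD 001 their adjusted p was 0.0528, 0.119 and 0.0521. Genes that handle the 2 drugs had 1 of 22 called, Ada (1.63 ± 0.38), which breaks down adenosine, and not without LD 001 (0.123), LD 003 (0.0915) or Ctrl 001 (0.123). Dck, the kinase that activates fludarabine, read 818.4, 904.2 and 911 in Ctrl and 1039, 1041 and 992.1 in LD, with all LD libraries above Ctrl and no call (adjusted p = 0.273).

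For most genes the LD libraries spread more than the Ctrl libraries. The SD of log2(normalized count + 1) was larger in LD for 59.6% of the 11122 tested genes and for 73.1% of the 283 that rose, with medians over the risen genes of 0.67 in LD and 0.31 in Ctrl. Without LD 001 both shares were 42.8%. An SD over 2 libraries tends to fall below one over 3 at equal spread, so 42.8% does not show a reversal. Without LD 002 or LD 003, also 2 against 3, the share of all tested genes was 53.8% or 53.3%. It thus dropped furthest without LD 001. Without Ctrl 002, with 3 LD against 2 Ctrl libraries, it was 73.1%. LD 001 was the highest LD library for 212 of the 283, and in 174 the order was LD 001, 003, 002. Among all tested genes LD 001 was highest in 4007 and lowest in 4412, and that order held for 1997. For the 52 genes that fell the medians were 0.13 and 0.12.

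The gene groups differed in the ratio of the highest to the lowest LD library. LD 001 was highest for all 30 mitosis genes that rose and for 22 of 23 neutrophil precursor and granule genes, against 5 of 22 interferon and MHC genes. Of the 30 mitosis genes that rose, 21 had an LD ratio of highest to lowest above 3 and 0 had one under 1.5, and of 23 neutrophil precursor and granule genes 19 were above 3 and 0 under 1.5. Of the 22 interferon and MHC genes that rose, 0 were above 3 and 20 were under 1.5. A small change is called only if libraries lie close, so these ratios depend in part on the call. Over all tested members, called or not, the median SD in LD was 0.84 to 0.93 in the mitosis lists. It was 0.97 and 1.05 in the early neutrophil precursor and granule lists, and 0.13 to 0.2 in the interferon and MHC lists. The widest among called genes with a mean of at least 100 were Cd63 (SD 1.53), S100a8 (1.38), Elane (1.37), the spindle protein Spag5 (1.32), S100a9 (1.29), Dach1 (1.29), Prtn3 (1.25) and Cdca7 (1.24). The narrowest were Fcgr2b (0.01), Cfp (0.02), Irf7 (0.03), Spn (0.03), the chaperones Hsp90aa1 (0.03) and Hspa8 (0.03), Txndc16 (0.03) and the formin Fmnl3 (0.04). Fmnl3, at 77.2, 66 and 92 in Ctrl and 235.4, 227.6 and 241.4 in LD, was both among the most even and among the firmest rises (1.58 ± 0.16, adjusted p = 1.6e-04). Without LD 001 the median rise of the 30 mitosis genes went from 2.51 to 1.97, that of the 23 precursor and granule genes from 3.14 to 2.46, and that of the 22 interferon and MHC genes from 1.04 to 1.11.

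**Figure D4:**
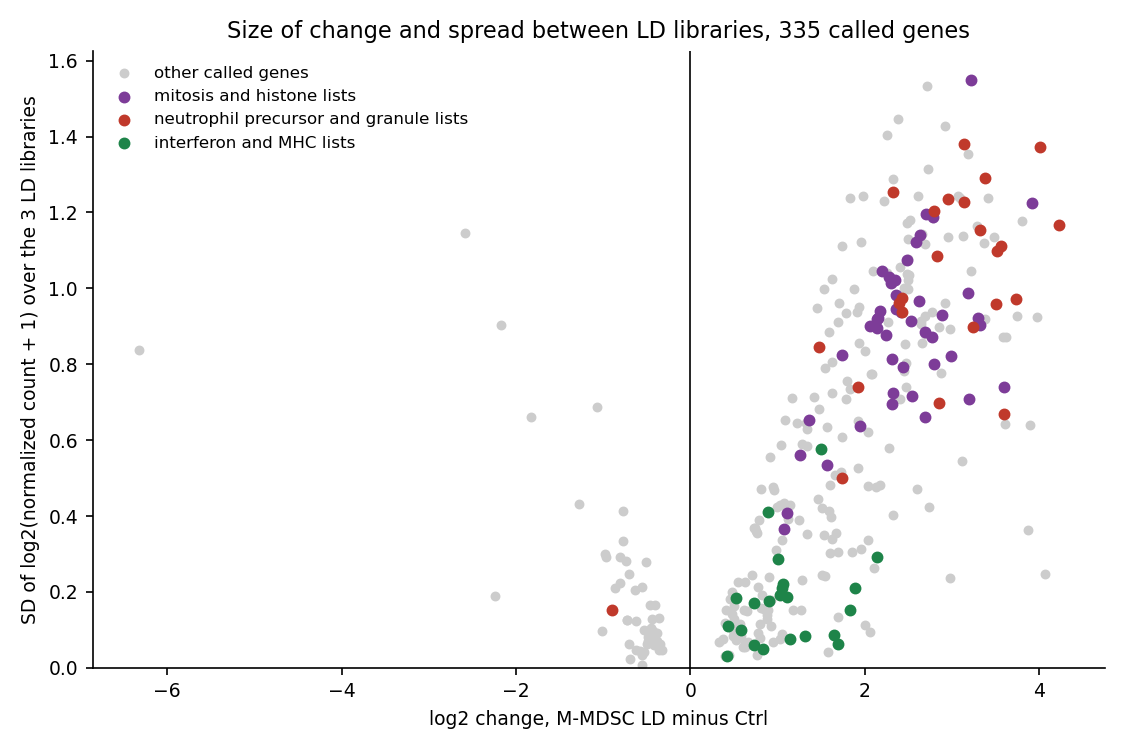
Log2 change of each of the 335 called genes against the SD of its log2 level over the 3 LD libraries. The 22 interferon and MHC genes lie low on the SD axis, and the 30 mitosis genes and 23 neutrophil precursor and granule genes lie high.

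Some uncalled genes varied widely between LD libraries. Cgnl1, a junction protein, read 46, 40.2 and 44.3 in Ctrl and 23.2, 405.9 and 1256 in LD, so that LD 001 lay below Ctrl and LD 003 far above it. The noncoding gene 2610020C07Rik read 9.1, 16.3 and 5 in Ctrl and 22.5, 2874 and 7.9 in LD, high in LD 002 alone. Mmp9, the gelatinase of late neutrophils, read 3.2, 48.8 and 35.3 in Ctrl and 43.5, 47.6 and 210.8 in LD, highest in LD 003. Fam20a, Zfyve28, Blm, Kif20b and 4930422G04Rik had SDs of 1.37, 1.31, 1.26, 1.36 and 1.25, and in all 8 the groups overlapped.

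Whether the response differed from that of PMN-MDSC was tested as the difference of both changes. It passed for 250 genes (2.25%), 131 toward M-MDSC and 119 toward PMN-MDSC, and for 52 of the 283 genes that rose in M-MDSC and 7 of the 52 that fell. The called genes were picked by their M-MDSC change, which is part of the difference, so their counts are a description. Itgax rose in M-MDSC (0.88) with a change of -0.63 in PMN-MDSC, a difference of 1.52 ± 0.22 (adjusted p = 0.00561). Cd300e had 2.6 and -0.19 (2.79 ± 0.59, adjusted p = 0.0281), and Eno3 had 1.12 and -1.17 (2.3 ± 0.31, adjusted p = 0.00225). Cd274 had 0.89 and -0.43 (1.33 ± 0.25, adjusted p = 0.0132), and H2-Eb1 had 1.65 and -0.36 (2.01 ± 0.43, adjusted p = 0.0293). Mmp8 went the other way, down in M-MDSC (-0.89) and up in PMN-MDSC (1.88), a difference of -2.78 ± 0.25 (adjusted p = 1.7e-04). Thbs1 fell in M-MDSC and had a change of 0.18 in PMN-MDSC (-2.42 ± 0.51, adjusted p = 0.0266).

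Other genes showed no such difference past the threshold, which does not show that both populations respond alike. Ifit2 had changes of 1.14 and 0.88, a difference of 0.26 ± 0.14 (adjusted p = 0.363), and Elane had 4.01 and 3.72, a difference of 0.29 ± 1.11 (adjusted p = 0.925). For Mki67 the difference was 1.85 ± 0.66 (adjusted p = 0.157). The count of 250 lay between 113 and 832 when 1 library was left out, and the 832 came without PMN-MDSC LD 001.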

How the data were processed

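Total RNA of sorted splenic cells was sequenced after probe-based depletion of ribosomal RNA, from 100 ng of input. The authors deposited a table of normalized counts (a signal in read units divided by a size factor) for 23479 gene symbols in 12 libraries. Per the submitters' processing notes, the tools were STAR 2.5.3a, HTSeq 0.6.1 and DESeq2, with build mm10, and whether counting used strand is not given in the sources used here. Values were whole multiples of the value of 1 read (100% within 0.001), so whole reads were recovered for the count tests, in which edgeR called 440 genes and DESeq2 723.

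The main test was limma 3.58.1 (R 4.3.3) with a trend on log2(normalized count + 1), fitted to all 12 libraries with a mean per group (8 residual degrees of freedom), for genes with a mean of at least 10, with Benjamini-Hochberg adjustment and a threshold of 0.05, two-sided. The scale understates changes of low genes. Spread was described, with no test, as the SD of log2(normalized count + 1) over the libraries of a group, also with each M-MDSC library left out. Alternatives were edgeR 4.0.16, DESeq2 1.42.0, TMM, other pseudocounts and minimum levels, sample weights, M-MDSC alone, a replicate block and each library left out. The code was tested on simulated data. The 72 gene lists and the members were chosen with earlier results of these data known.

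Genes were named by rule: the 15 largest rises and falls with a mean of at least 100, up to 6 called members of each list (or up to 3 of the most abundant where fewer than 2 were called), each called surface or secreted gene, the 8 widest and 8 narrowest called genes over LD libraries and the 8 widest not called, the 6 largest differences from PMN-MDSC each way, and 12 genes of identity and progenitors. Not every gene this rule picks is printed. Some items are left out of the text and figures and are not reported here. A few other list members are given as values, picked with their values in view. Promoters are from RefSeq (GRCm38.p6), 250 bases upstream, for 8885 tested genes.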

Additional observations from a re-analysis of the deposited data

Results flagged for a closer look

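The difference between the LD change in M-MDSC and that in PMN-MDSC passed (limma interaction, adjusted p below 0.05) for 2.25% of all tested genes. Of the 270 genes named by the rule, 43 passed and were either called in M-MDSC or named for this difference. Genes named for it had to pass, and the M-MDSC change of the called ones enters the difference. The count of 43 is therefore a description and no separate support. Each value here is the M-MDSC change minus the PMN-MDSC change on the log2 scale. Both changes use the 3 LD and 3 Ctrl libraries of their own population.

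Among genes of monocyte state, the difference was 2.79 for Cd300e, 1.52 for Itgax, 2.3 for Eno3, 0.59 for Cebpb and 2.17 for Ccrl2. Antigen presentation and interferon genes gave 2.01 for H2-Eb1, 0.99 for H2-Q4, 2.57 for H2-Q5 and 0.87 for Oasl1, and Cd274 gave 1.33. The H2-Q genes have close relatives, and their reads are uncertain. Precursor and granule genes gave 2.27 for Ltf, 2.42 for Camp, 2.15 for Itgb2l and 2.31 for Hdc, Ly6a gave 2.44, and the division genes Prc1, Kifc1 and Lmnb1 gave 2.6, 2.45 and 0.99.

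Secreted and effector genes gave 3.68 for Vegfa, 3.47 for Inhba, 0.95 for Il1rn, 4.97 for Adamdec1, 2.65 for Irg1 and 1.92 for Axl. Regulators gave 1.68 for Egr1, 1.26 for Jun, 0.99 for Bhlhe40, 0.72 for Trib1, 2.04 for Bcl2a1b and 2.71 for Phf15. Cd82 gave 0.82, Fmnl3 1.01, Hsp90aa1 0.82 and the lactate exporter Slc16a3 0.72.

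In the other direction, the difference was -2.78 for Mmp8, -2.42 for Thbs1 and -0.88 for Amica1, which fell in M-MDSC. For 6 genes that were not called in M-MDSC the difference comes with a large change in PMN-MDSC. The cholesterol exporter Abca1 (3.83) and the amino acid transporter Slc7a6 (3.17) changed by -2.92 and -3.19 in PMN-MDSC. Sntb1 (-2.33), Acvrl1 (-2.15), Mgst1 (-1.72) and Timp2 (-1.7) changed by 1.36, 2.11, 1.46 and 1.0 there. For Abca1, Sntb1, Timp2 and, less so, Mgst1, part of the difference comes from an uncalled M-MDSC change in the opposite direction.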

How the results depend on the processing

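Against 335 calls (283 higher, 52 lower), DESeq2 on the recovered whole reads called 723 (549 higher, 174 lower) and limma with sample weights 976 (646 and 330), and both included all 335. edgeR called 440 and shared 325. A pseudocount of 0.5 or 8 gave 326 or 381 calls, no minimum level 245, a minimum mean of 50 gave 329, TMM scaling 345 and M-MDSC fitted alone 353, of which 225 were shared. Calls shared with the reported ones had the same direction in each of these settings. With 1 library left out, there were 192 to 549 calls, 167 to 434 higher and 20 to 115 lower, and 113 to 832 genes with a difference from PMN-MDSC. The fewest calls came without Ctrl 001 (192), Ctrl 003 (199) or LD 003 (217), and the most without PMN-MDSC LD 001 (549). The cause was not tested. The share of genes with the larger SD in LD, 59.6%, ranged from 42.8% (without LD 001) to 73.1% (without Ctrl 002). With 1 library left out, an SD over 2 libraries is set against one over 3, so 42.8% does not show that the direction turned. With the replicate block there were 373 calls (323 higher, 50 lower), 318 of them shared, and 213 differences from PMN-MDSC. Deviations from the group means gave no sign that numbers pair M-MDSC Ctrl with LD, correlating at 0, 0.001 and -0.037 for equal numbers. Between M-MDSC LD and PMN-MDSC LD they correlated at 0.208, 0.125 and 0.068 for equal numbers and at -0.156 to 0.053 for unequal ones. Between the Ctrl groups these were -0.037, 0.054 and 0.135, and -0.154 to 0.099. Whether both populations came from the same animals was not tested, and the main test of their difference treats them as independent. With 3 libraries a group and 9185223 to 16242926 reads each, genes of few reads were tested with little precision, and Arg1 and Nos2 were not tested.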
